A study of Mus musculus with 16 samples.

Results

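miR-203-3p and miR-205-5p, a pair of microRNAs (miRNAs) best known from skin and other stratified epithelia, were followed through 16 small RNA libraries of mouse blastocyst fragments. The members are the rows mmu-miR-203-3p and mmu-miR-205-5p, 2 of the 1978 mature miRNA names in the count files, and they hold 1643 of 122251 miRNA counts. Blastocysts had been cut with a laser into a polar fragment with the inner cell mass and a fragment of mural trophectoderm. The 6 groups are polar and mural fragments of normal blastocysts, labelled WT, at E4.5 (n = 2 libraries each), of embryos in natural diapause in vivo at EDG 7.5, labelled diapaused (n = 3 each) and of blastocysts paused by mTOR inhibition, called mTORi (n = 3 each). The series asks which miRNAs change when development pauses naturally or through the inhibitor. No allele, strain, inhibitor name, dose or embryonic day of the mTORi group, and no number of embryos per library, is given in the sources used here. WT and diapaused blastocysts differ in day as well as in treatment, and the effects of the day and of the treatment cannot be told apart.

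A mature miRNA guides an Argonaute protein to partly complementary sites in messenger RNAs, mainly through its seed, bases 2 to 8, and so lowers their translation and stability. In mouse skin, miR-203 is induced as keratinocytes leave the basal layer and represses p63, the transcription factor that maintains their progenitors. miR-205 is abundant in basal cells of stratified and glandular epithelia, and both miRNAs repress regulators of epithelial to mesenchymal transition. The trophectoderm is itself an epithelium, but a simple one.

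The mature sequences are shown because they establish that the members are unrelated molecules, with the seed in capitals (RefSeq, GRCm38.p6, 5′ to 3′).
miR-203-3p: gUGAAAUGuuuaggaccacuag
miR-205-5p: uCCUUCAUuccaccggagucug
miR-203-3p lies at chr12:112130927-112130948 on the plus strand and miR-205-5p at chr1:193507503-193507524 on the minus strand. No other name among the 1679 of the 1978 table names that matched a RefSeq mature sequence shares either seed. The hairpins from which they are cut follow, with the member in capitals.
Mir203: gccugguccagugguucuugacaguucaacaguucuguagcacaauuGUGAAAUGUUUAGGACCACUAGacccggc
Mir205: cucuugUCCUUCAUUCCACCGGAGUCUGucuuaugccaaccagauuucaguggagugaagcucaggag
In GENCODE M21 the Mir203 hairpin is intergenic, 3321 bp from Aspg and 15253 bp from Kif26a. The Mir205 hairpin lies within an exon of the long noncoding RNA 4631405K08Rik, and the nearest protein-coding gene, Camk1g, is 137165 bp away. Mir203 also has an antisense hairpin, whose arm miR-203b-5p is the reverse complement of miR-203-3p over 20 nt, so counts of the 2 names can be told apart only if the counting used strand, which is not given in the sources used here.

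The names of the opposite arms and of the antisense hairpin were all but empty. miR-203-5p had 3 counts over the 16 libraries, none of them in polar mTORi replicate 3, and miR-205-3p, miR-203b-3p and miR-203b-5p had 0. The counts at these hairpins stood almost wholly under the names of the members.

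Both members were low in 15 libraries and very high in 1, polar mTORi replicate 3. Total miRNA counts ran from 1744 to 20051 per library, and the exact Clopper-Pearson 95% intervals given here cover counting error only. miR-203-3p was detected in all 16 libraries. Its counts in polar mTORi replicates 1, 2 and 3 were 13, 35 and 748, or 0.425%, 1.60% and 21.4% of the library (interval for replicate 3, 20.0% to 22.8%). Replicate 3 alone held 57.9% of the 1292 counts of this miRNA and stood 13.3-fold above the highest of the other 15 libraries, polar mTORi replicate 2. Summed over all libraries miR-203-3p ranked 19 among the 1978 names, and 41 without replicate 3.

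miR-205-5p was detected in 15 of the 16 libraries and had the same single peak. Its counts in polar mTORi replicates 1, 2 and 3 were 9, 5 and 156, or 0.294%, 0.229% and 4.46% (interval for replicate 3, 3.796% to 5.19%). Replicate 3 held 44.4% of its 351 counts and stood 10.4-fold above the highest other library, mural mTORi replicate 3 at 0.430%. In polar mTORi replicate 3, miR-203-3p was the most abundant of all miRNAs and miR-205-5p the fourth, with miR-292a-5p (9.37%) and miR-294-3p (7.34%) of the embryonic miR-290/miR-295 cluster between them.

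**Figure D1:**
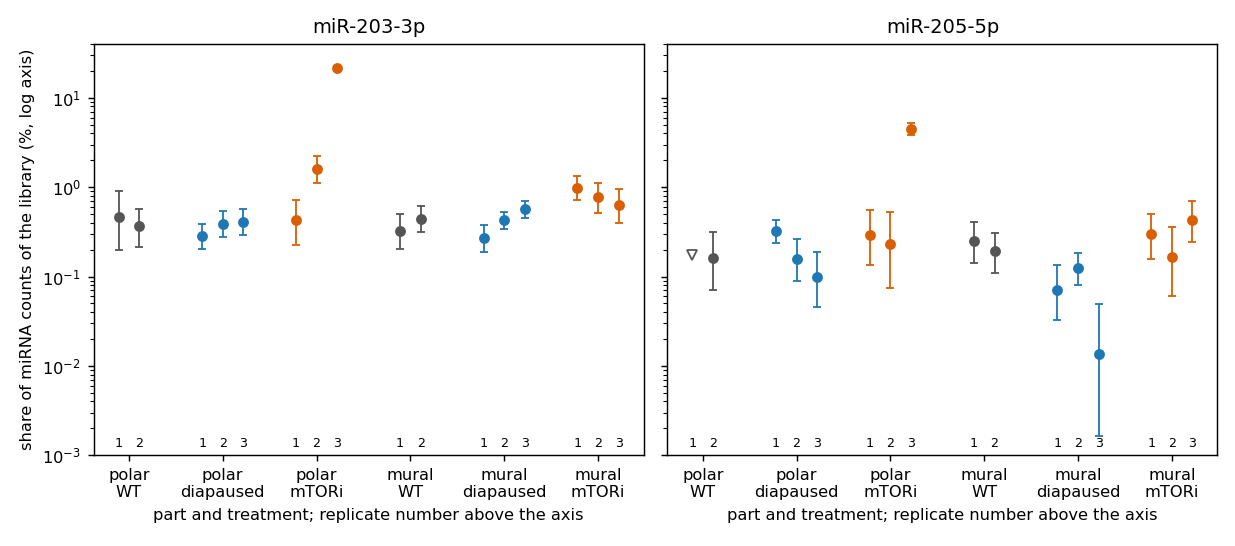
Share of miRNA counts of each library (percent, log axis) taken by miR-203-3p (left) and miR-205-5p (right) in the 6 groups, with exact 95% intervals, and an open triangle at the limit of 0.172% where miR-205-5p had no count. Polar mTORi replicate 3 stands at 21.4% and 4.46%, above all other libraries.

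Outside the polar mTORi group miR-203-3p ran from 0.270% to 0.980% of the library. The WT libraries gave 8 and 18 counts in polar fragments (0.459% and 0.364%) and 21 and 37 in mural fragments (0.326% and 0.442%). Diapaused replicates 1, 2 and 3 gave 41, 37 and 37 counts in polar fragments (0.283%, 0.389% and 0.409%) and 34, 86 and 84 in mural fragments (0.270%, 0.429% and 0.567%). The mural diapaused values spanned those of the mural WT libraries, whereas polar WT replicate 1 lay above and polar WT replicate 2 among the polar diapaused values. The 3 mural mTORi libraries gave 43, 28 and 22 counts, or 0.980%, 0.775% and 0.630%. All 3 lay above every WT and diapaused library of either part, whereas polar mTORi replicate 1, at 0.425%, lay between the polar WT values. The share of all miRNAs that separated these libraries equally was not counted, so the separation is a description only.

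miR-205-5p was rarer and more scattered. Polar WT replicate 1 had 0 counts, which allows a share of up to 0.172%, and replicate 2 had 8 (0.162%), while the mural WT libraries had 16 each (0.249% and 0.191%). Diapaused replicates 1, 2 and 3 gave 47, 15 and 9 counts in polar fragments (0.324%, 0.158% and 0.0995%) and 9, 25 and 2 in mural fragments (0.0714%, 0.125% and 0.0135%). All 3 mural diapaused libraries thus lay below both mural WT libraries, and the polar diapaused libraries lay on both sides of polar WT replicate 2. Here too the share of all miRNAs that separated equally was not counted. Mural mTORi fragments gave 13, 6 and 15 counts (0.296%, 0.166% and 0.430%), which overlapped with the mural WT values.

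For testing, the counts of tested miRNAs were scaled to one common library size (CPM) with TMM factors, which offset differences in composition between libraries. By mean CPM, miR-203-3p was ordered from polar diapaused (3324 ± 529, SD, n = 3) through mural WT (3848 ± 816, n = 2), polar WT (3929 ± 315, n = 2), mural diapaused (5241 ± 1812, n = 3) and mural mTORi (8394 ± 1634, n = 3) to polar mTORi (95306 ± 148315, n = 3). Neighbours among the lowest 4 groups differed by less than the larger of their SDs, mural mTORi exceeded mural diapaused by more than either SD, and the polar mTORi mean was smaller than its own SD. For miR-205-5p the order was polar WT (824 ± 1165, n = 2), mural diapaused (868 ± 683, n = 3), polar diapaused (1833 ± 1172, n = 3), mural WT (2203 ± 409, n = 2), mural mTORi (3227 ± 1646, n = 3) and polar mTORi (20302 ± 30550, n = 3). Each step in that order was smaller than the larger SD of the 2 neighbours. Without replicate 3 the polar mTORi mean was 10859 ± 7693 CPM for miR-203-3p and 3040 ± 1006 CPM for miR-205-5p (n = 2). In these bulk fragments, fewer cells of a type and less RNA per cell cannot be told apart.

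In polar fragments the first comparison asks what each kind of pause does. Against WT, diapause gave log2 differences of -0.23 for miR-203-3p (SE 1.08, edgeR adjusted p = 0.957) and 0.80 for miR-205-5p (SE 1.33, edgeR adjusted p = 0.782), and neither was called at an adjusted p under 0.05. In that comparison 7.84% of the 102 tested miRNAs were called. The intervals of the 2 differences, -2.51 to 2.05 and -1.99 to 3.60, leave room for several-fold changes either way.

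With all 16 libraries, both members rose under mTORi in polar fragments. The log2 difference from WT was 4.61 for miR-203-3p (SE 1.19, edgeR adjusted p = 0.0187) and 4.24 for miR-205-5p (SE 1.34, edgeR adjusted p = 0.0287), where 22.5% of tested miRNAs were called. With the replicate number as a block the miR-205-5p difference was no longer called. Without polar mTORi replicate 3 these values became 1.52 (SE 0.54, edgeR adjusted p = 0.0630) and 1.54 (SE 1.01, edgeR adjusted p = 0.270), and neither was called, against 12.3% of 106 tested miRNAs. On the TMM scale both polar mTORi libraries that remain lay above both polar WT libraries for each member, yet by share replicate 1 did not for miR-203-3p. How many of all tested miRNAs separated in this way was not counted. miR-451a, the leading member of the erythroid list, also differed in this comparison, since that list took 2.43% of polar WT replicate 2 but 0.115% of replicate 1 and 0% to 0.275% of polar mTORi libraries. Its part in the result was not tested. limma with library quality weights, which gave replicate 3 the lowest weight of the 16 libraries (0.367), called neither member in this comparison (log2 differences 1.99 and 2.76, limma adjusted p 0.222 and 0.159).

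Set against each other in polar fragments, diapause and mTORi differed by -4.84 for miR-203-3p (SE 0.96, edgeR adjusted p = 0.00517) and by -3.44 for miR-205-5p (SE 0.97, edgeR adjusted p = 0.0260), both lower in diapaused fragments, with 15.7% of tested miRNAs called. The miR-205-5p difference was not called with the replicate number as a block. miR-203-3p remained called without polar mTORi replicate 3, at -1.78 (SE 0.45, edgeR adjusted p = 0.0146), beside a background of 14.2%. That value leans on polar mTORi replicate 2, since without replicates 2 and 3 together the difference was -0.23 (edgeR adjusted p = 0.890). It was also no longer called after leaving out any 1 of the 3 polar diapaused libraries as well, with log2 differences of -1.64 to -1.38 (edgeR adjusted p 0.0666 to 0.108). miR-205-5p gave -0.78 without replicate 3 (SE 0.79, edgeR adjusted p = 0.563). The polar diapaused libraries were deeper, at 9049 to 14500 counts, than the polar mTORi libraries, at 2184 to 3501, and the part of depth was not tested.

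**Figure D2:**
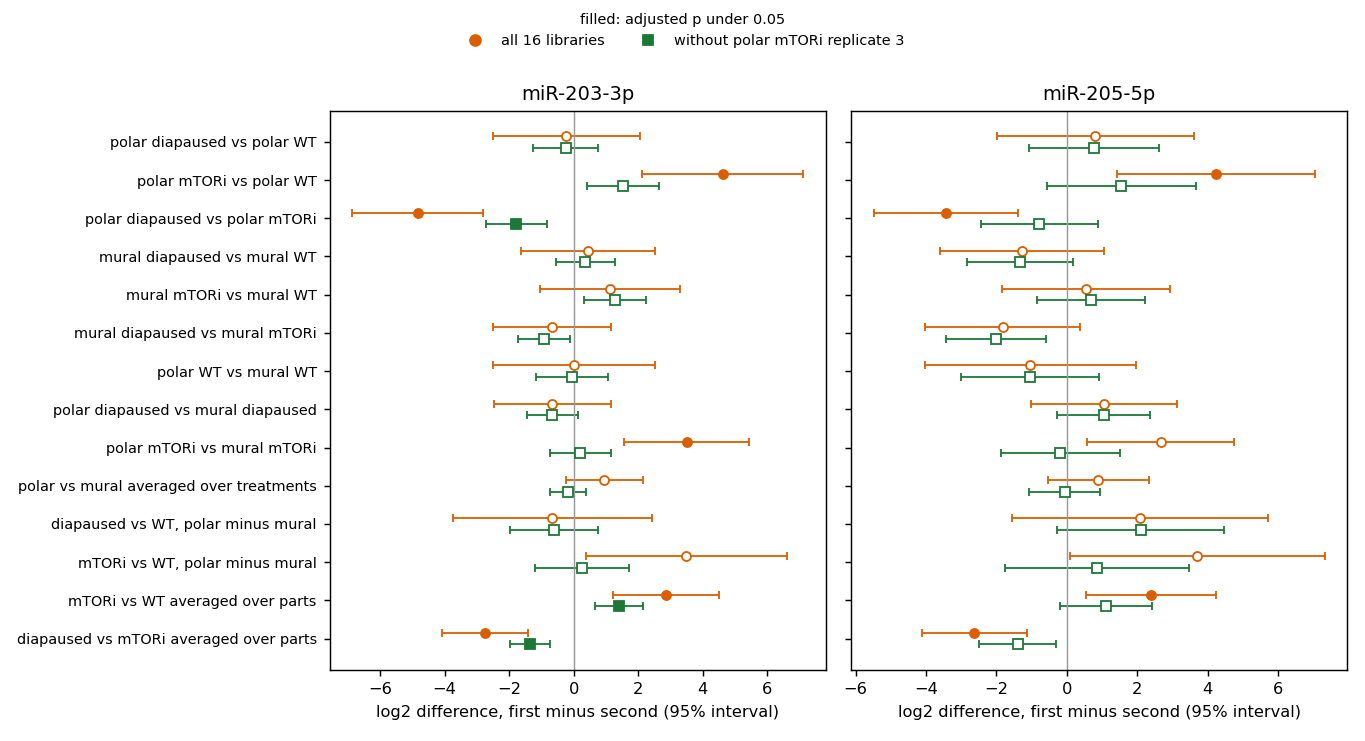
Log2 differences of miR-203-3p (left) and miR-205-5p (right) for each comparison, first group minus second, with 95% intervals, from all 16 libraries (circles) and without polar mTORi replicate 3 (squares), filled where the edgeR adjusted p was under 0.05. The differences with polar mTORi shrink toward 0 when the library is removed, from 4.61 to 1.52 for miR-203-3p against polar WT.

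In mural fragments, where no library had a comparable peak, neither member was called in any comparison. miR-203-3p was 1.12 higher on the log2 scale in mTORi than in WT (SE 1.02, edgeR adjusted p = 0.626), in a comparison in which 11.8% of tested miRNAs were called. Removing polar mTORi replicate 3 from the fit left that difference at 1.27 and cut its SE to 0.46 (edgeR adjusted p = 0.0660), with 16% of tested miRNAs called. All groups share the spread estimated over the whole design, so by its SE the test of mural fragments depended on a polar library. The biological coefficient of variation of miR-203-3p was 0.705 with that library and 0.313 without it (0.788 and 0.484 for miR-205-5p). That coefficient is a related measure and not itself the spread used in the quasi-likelihood test.

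Diapause gave mural differences from WT of 0.44 for miR-203-3p (SE 0.99, edgeR adjusted p = 0.811) and -1.28 for miR-205-5p (SE 1.11, edgeR adjusted p = 0.649), where 9.8% of tested miRNAs were called. For miR-205-5p, mTORi differed from WT by 0.54 (SE 1.13, edgeR adjusted p = 0.872). Diapaused against mTORi fragments gave -0.68 for miR-203-3p (SE 0.87, edgeR adjusted p = 0.623) and -1.82 for miR-205-5p (SE 1.04, edgeR adjusted p = 0.258), with 0.98% of tested miRNAs called. Without polar mTORi replicate 3 the values were -0.92 (edgeR adjusted p = 0.146) and -2.01 (edgeR adjusted p = 0.0750), and 6.6% were called. The fitted sign, lower in diapaused than in mTORi fragments, was the same for both members in both parts, though called only in polar fragments.

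Polar and mural fragments were compared within each treatment. In WT blastocysts the log2 difference, polar minus mural, was 0.01 for miR-203-3p (SE 1.19, edgeR adjusted p = 0.994) and -1.03 for miR-205-5p (SE 1.42, edgeR adjusted p = 0.723), with 10.8% of tested miRNAs called. In diapaused blastocysts it was -0.66 (SE 0.86, edgeR adjusted p = 0.692) and 1.05 (SE 0.98, edgeR adjusted p = 0.520), with 18.6% called. Neither member was called between the parts of WT or diapaused blastocysts, and the signs differed between the members.

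In mTORi blastocysts miR-203-3p was higher in polar fragments by 3.50 (SE 0.92, edgeR adjusted p = 0.0466), and miR-205-5p by 2.67 (SE 0.99, edgeR adjusted p = 0.119, not called), with 4.9% of tested miRNAs called. With the replicate number as a block the miR-203-3p difference was 2.46 (SE 0.91, edgeR adjusted p = 0.151) and was not called. Without polar mTORi replicate 3 the differences were 0.20 (SE 0.45, edgeR adjusted p = 0.919) and -0.18 (SE 0.81, edgeR adjusted p = 0.930), with 2.83% called. Averaged over treatments, polar minus mural was 0.95 (SE 0.57, edgeR adjusted p = 0.248) and 0.90 (SE 0.68, edgeR adjusted p = 0.370) in the full fit, in which 27.5% were called. Without the library it was -0.17 (SE 0.26, edgeR adjusted p = 0.715) and -0.06 (SE 0.48, edgeR adjusted p = 0.938), with 26.4% called. Neither was called, and the 95% intervals of the latter differences were -0.73 to 0.38 for miR-203-3p and -1.07 to 0.95 for miR-205-5p.

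Whether a treatment acted differently in the 2 parts was tested directly. The mTORi effect was larger in polar than in mural fragments by 3.49 for miR-203-3p (SE 1.48, edgeR adjusted p = 0.307) and by 3.71 for miR-205-5p (SE 1.72, edgeR adjusted p = 0.357), and neither was called. edgeR called 0% of the 102 tested miRNAs there (14 at an unadjusted p under 0.05), and DESeq2 and limma 1 each. Without polar mTORi replicate 3 the values were 0.26 (edgeR adjusted p = 0.863) and 0.87 (edgeR adjusted p = 0.773), with 0.943% called. For diapause the differences between parts were -0.67 (edgeR adjusted p = 0.924) and 2.09 (edgeR adjusted p = 0.666). edgeR called 0% of tested miRNAs in that comparison too (12 at an unadjusted p under 0.05), and DESeq2 and limma called 0.

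Averages over both parts, added after the values were seen, used all mTORi libraries. In the full fit mTORi fragments were above WT by 2.87 for miR-203-3p (SE 0.78, edgeR adjusted p = 0.0117) and 2.39 for miR-205-5p (SE 0.88, edgeR adjusted p = 0.0461), where 32.4% of tested miRNAs were called. Diapaused fragments were below mTORi fragments by log2 differences of -2.76 (SE 0.64, edgeR adjusted p = 0.00543) and -2.63 (SE 0.71, edgeR adjusted p = 0.0105), with 29.4% called. For miR-203-3p both calls were also made without polar mTORi replicate 3, at 1.40 (SE 0.35, edgeR adjusted p = 0.00705) beside a background of 24.5%, and at -1.35 (SE 0.30, edgeR adjusted p = 0.00346) beside 23.6%. miR-205-5p then missed the threshold at 1.11 (SE 0.62, edgeR adjusted p = 0.188) and -1.39 (SE 0.52, edgeR adjusted p = 0.0602).

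Of those 2 calls for miR-203-3p, both were lost when polar mTORi replicate 2 was left out as well, with log2 differences of 0.63 against WT (edgeR adjusted p = 0.258) and -0.51 for diapaused against mTORi (edgeR adjusted p = 0.327). The one against WT was lost too without mural mTORi replicate 1 (1.06), polar WT replicate 1 (1.15), polar WT replicate 2 (1.17) or mural WT replicate 1 (1.12). Polar mTORi replicate 2, the shallowest mTORi library at 2184 counts, also held the largest shares of the leukocyte list (8 counts of 3 of its 5 members, 0.366%) and of the stromal list (7 counts of 1 of its 5 members, 0.321%) of all 16 libraries. Their part in the result was not tested. In that library the leukocyte counts were 5 of miR-150-5p, 2 of miR-155-5p and 1 of miR-223-3p. miR-142a-3p, another member of that list, had 0 of the 2184 counts there. Over all 16 libraries miR-223-3p had 11 counts and miR-142a-3p 18, of which 12 were in polar WT replicate 2.

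Polar mTORi replicate 3 was less like its group than the other replicates were, also apart from the 2 members. With both members left in, the Pearson correlation of log2 CPM (here by library total, without TMM factors) over the 61 miRNAs with 10 or more counts in 1 of the 3 libraries was 0.742 between replicates 1 and 2, but 0.466 and 0.444 between each of them and replicate 3. Without the members it was 0.746, 0.548 and 0.477. These are correlations across miRNAs, which are not independent replicates, and some of the 61 passed the count minimum through replicate 3 alone. Of the 3501 counts of replicate 3, 2597 were not of the members.

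Ranked by the ratio of their CPM, again by library total, in replicate 3 to the mean of replicates 1 and 2, the leading 5 of these 61 miRNAs were miR-222-3p (23.7, from 0, 1 and 19 counts), miR-203-3p (21.1), miR-205-5p (17.0), miR-23b-3p (11.4, from 2, 0 and 13 counts) and miR-221-3p (6.99, from 6, 0 and 24 counts). All of these but miR-203-3p reached 10 counts in replicate 3 alone of the 3 libraries, so the count minimum favours a high ratio for them, and the ranking is a description that supports nothing further. The ratios of miR-222-3p and miR-23b-3p rest on 1 and 2 counts in the denominator. Against the highest of the other 15 libraries, replicate 3 stood at 1.08-fold for miR-23b-3p, 9.47-fold for miR-222-3p and 3.42-fold for miR-221-3p. So miR-23b-3p had no comparable peak in replicate 3. miR-221-3p and miR-222-3p are encoded together on the X chromosome and share a seed, shown in capitals (RefSeq, GRCm38.p6), which neither member has.
miR-221-3p: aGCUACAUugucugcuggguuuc
miR-222-3p: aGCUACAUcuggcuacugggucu
Further miRNAs named after their values were seen were miR-21a-5p and let-7b-5p. In replicates 1, 2 and 3, miR-21a-5p had 27, 6 and 127 counts (ratio 6.27) and let-7b-5p had 18, 14 and 97 (ratio 4.51). The related let-7g-5p did not share the rise, with 22, 10 and 17 counts (ratio 0.825).

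**Figure D3:**
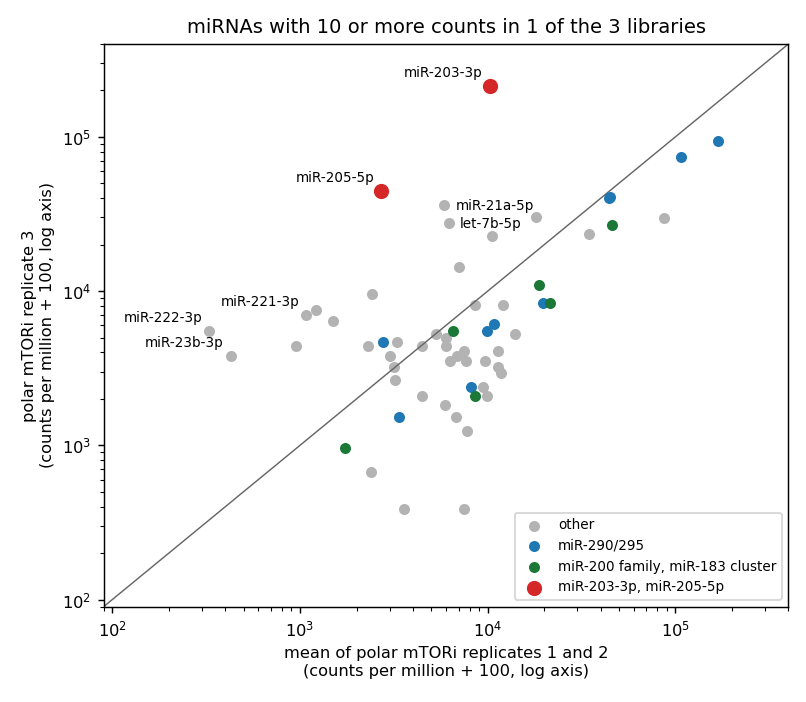
CPM by library total, plus 100, of 61 miRNAs in polar mTORi replicate 3 (vertical) against the mean of replicates 1 and 2 (horizontal), both on log axes, with the diagonal of equal values. miR-203-3p and miR-205-5p lie far above the diagonal at ratios of 21.1 and 17.0, and most miR-290/miR-295 members lie below it.

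Lists of marker miRNAs were read in the same library. The miR-290/miR-295 cluster, the most abundant cluster of the early embryo, took 27.8% of replicate 3 against 37.4% to 54.9% of the other 15 libraries. Since the members took 25.8% of the library, all other shares were compressed, and among counts other than the members the cluster took 37.5%, against 37.6% to 55.2% elsewhere. The trophoblast list (miR-322/miR-503) took 0.343% of replicate 3, beside 1.21% and 1.60% in replicates 1 and 2, and 2.41% to 5.41% in all mural libraries. The share of replicate 3 rests on 12 counts and was the lowest of the 16 libraries, just under the 0.344% of polar WT replicate 1. Among counts other than the members it was 0.462%. It lay below all mural libraries, but a low share from few counts cannot establish that the library is polar.

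The epithelial miRNAs that simple epithelia also express, the miR-200 family and the miR-183 cluster, did not share the peak. They took 5.57% of replicate 3 and 7.53% to 14.99% of the other libraries. Among counts other than the members the values were 7.51% and 7.57% to 15.1%, so replicate 3 was the lowest of the 16 on both scales. miR-200c-3p, a repressor of mesenchymal regulators, had 162, 85 and 94 counts in polar mTORi replicates 1, 2 and 3, and miR-183-5p had 15, 26 and 7. Other skin-enriched miRNAs were near 0, with 3 counts of miR-31-5p and 1 of miR-184-3p in replicate 3, out of 18 and 11 in all libraries.

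Markers of further cell types were also near 0 in replicate 3. The erythroid list had 4 counts (0.114%), all of miR-451a, the leukocyte list 5 (0.143%), the endothelial list 2 (0.0571%), the stromal list 4 (0.114%), and the muscle, liver and neural lists 0. In the other 15 libraries the erythroid list reached 2.43%, the leukocyte list 0.366%, the endothelial list 0.122% and the stromal list 0.321%. The muscle list reached 0.00793% there, the liver list 0.101%, and the neural list had no count. None of these lists stood above its range in the other libraries, by share or among counts other than the members. On the latter scale the stromal list took 0.154% of replicate 3, above 13 of the other 15 libraries. The leukocyte list took 0.193% (above 12), the endothelial list 0.0770% (above 11) and the erythroid list 0.154% (above 10). These values rest on 2 to 5 counts each. The stratified epithelial list other than the members took 0.154% of the remaining counts, against 0% to 0.0781% elsewhere.

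**Figure D4:**
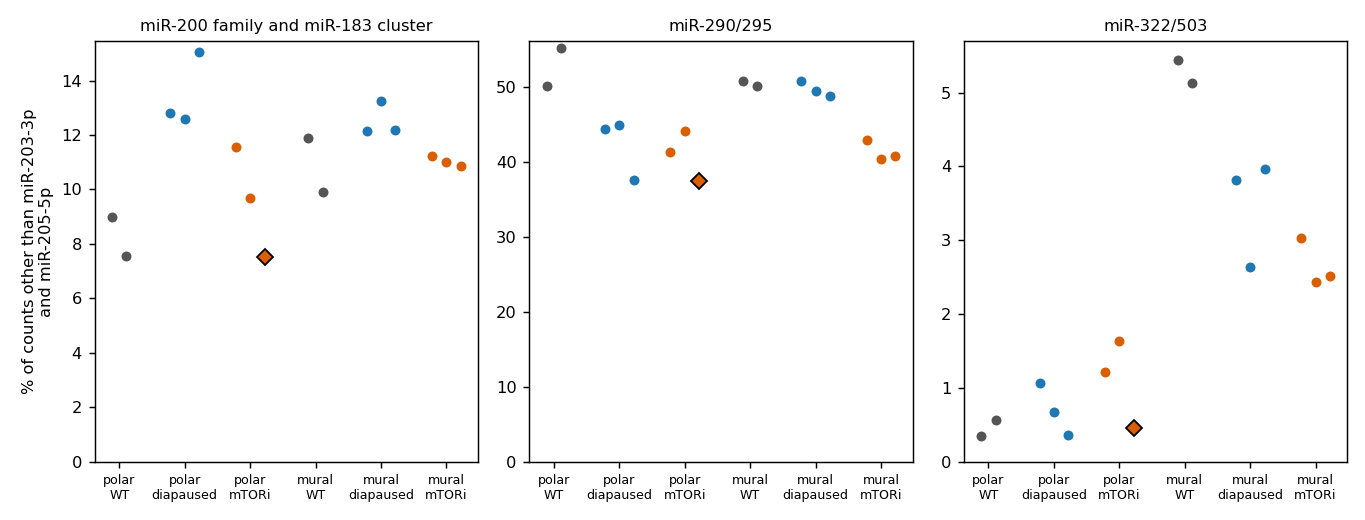
Percent of counts other than miR-203-3p and miR-205-5p taken by the miR-200 family with the miR-183 cluster (left), miR-290/miR-295 (middle) and miR-322/miR-503 (right) in each library, with a diamond for polar mTORi replicate 3. The diamond is the lowest of all 16 libraries at 7.51% and 37.5% in the left and middle panels, and stands at 0.462% on the right.

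The 8 listed members of the miR-200 family and miR-183 cluster were also read across treatments, of which 7 passed the filter on low counts. In polar fragments mTORi gave 2 called higher than WT, miR-200b-3p (1.53, SE 0.39, edgeR adjusted p = 0.0187) and miR-200c-3p (1.01, SE 0.25, edgeR adjusted p = 0.0187), and 1 lower, miR-182-5p (-0.95, SE 0.31, edgeR adjusted p = 0.0327). So 3 of 7 were called, where 22.5% of all tested miRNAs were. The list's median was 1.01, beside 0.18 over all tested miRNAs. Without polar mTORi replicate 3, 2 were higher and 0 lower, where 12.3% were called, with a median of 1.41 beside 0.34. Diapause against WT in polar fragments also gave 2 higher and 0 lower, where 7.84% were called, with a median of 1.39 beside 0.10, again miR-200b-3p and miR-200c-3p. In mural fragments none of the 7 was called under mTORi against WT (edgeR adjusted p 0.0913 to 0.950), with a median of 0.08 beside -0.06 and 11.8% called over all tested miRNAs (without polar mTORi replicate 3, 1 was higher, with a median of 0.21 beside 0.04 and 16% called). Mural diapause gave 1 higher, miR-200c-3p (0.93, SE 0.24, edgeR adjusted p = 0.0248), with a median of 0.81 beside 0.19 and 9.8% called. The difference of the effect between parts was not called for any of the 7 under mTORi (edgeR adjusted p 0.213 to 0.983) or under diapause (edgeR adjusted p 0.643 to 0.9997). The comparisons with WT share their WT libraries.

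miR-203-3p had more counts than miR-205-5p in 15 of the 16 libraries. Both are 22 nt long, but ligation and PCR can favour 1 sequence over the other, so the balance of their counts is compared between libraries and is not a ratio of molecules. In polar mTORi replicate 3 miR-203-3p made up 82.7% of the 904 counts of both (exact interval 80.1% to 85.2%), and in the other 15 libraries pooled 73.6% (70.3% to 76.8%). Among single libraries the share ran from 46.6% in polar diapaused replicate 1 (35.9% to 57.5%, 88 counts) to 97.7% in mural diapaused replicate 3 (91.9% to 99.7%, 86 counts), apart from polar WT replicate 1, in which all 8 counts were miR-203-3p. The ratio of miR-203-3p to miR-205-5p was 4.79 in replicate 3, within the range of 0.872 to 42 of the other libraries with both. That range is wide, and its ends come from single libraries with 41 against 47 and 84 against 2 counts. A ratio inside it therefore says little about likeness. The interval of the 15 pooled libraries did not overlap that of replicate 3. It covers counting error only and leaves out the spread between libraries, so nothing is concluded from this.

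**Figure D5:**
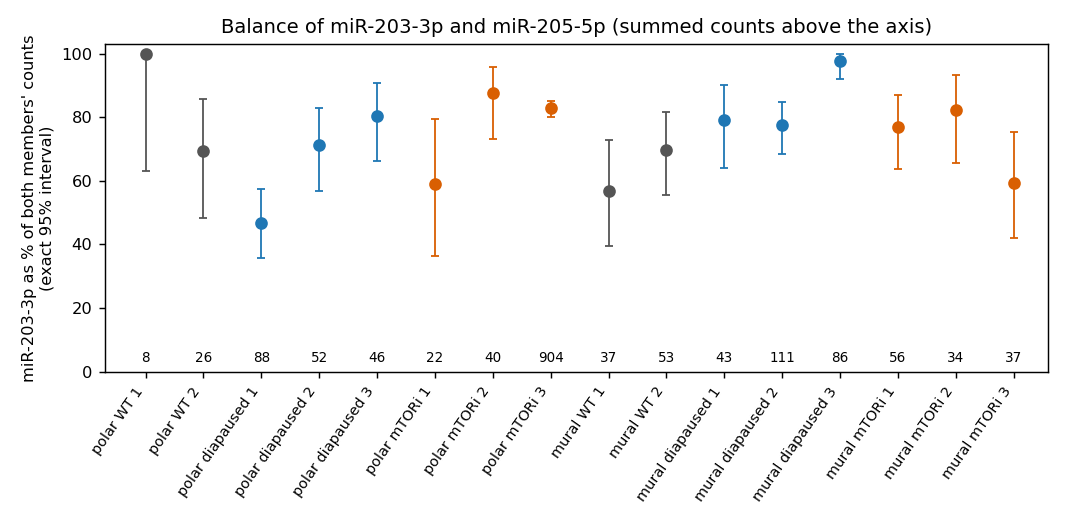
miR-203-3p as a percentage of the summed counts of both members in each library, with exact 95% intervals and the summed counts printed above the axis. Polar mTORi replicate 3, at 82.7% of 904 counts, lies inside the spread of the other libraries.

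Across libraries the members did not follow each other closely once ranks were used. The Spearman correlation of their log2 CPM was 0.31 over 16 libraries and 0.31 over the 15 without polar mTORi replicate 3, while Pearson's r was 0.72 and 0.26, so the high r rests on that library. The miRNAs most like miR-203-3p over 16 libraries by Spearman correlation were miR-29a-3p (0.71), miR-101a-3p (0.66), miR-10a-5p (0.55), let-7b-5p (0.50) and miR-10b-5p (0.47). Over 15 libraries they were miR-101a-3p (0.76), miR-29a-3p (0.70), miR-10b-5p (0.66), miR-10a-5p (0.64) and miR-30d-5p (0.64), so 4 of the names were on both lists.

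For miR-205-5p the leading miRNAs over 16 libraries were miR-221-3p (0.78), miR-320-3p (0.64), miR-29a-3p (0.62), miR-26b-5p (0.59) and miR-30e-3p (0.54). Over 15 libraries they were miR-221-3p (0.72), miR-30e-3p (0.71), miR-320-3p (0.68), miR-29a-3p (0.67) and miR-30e-5p (0.65). miR-221-3p led with and without the library in which both were high. Over the other 15 libraries, however, miR-221-3p had only 38 counts, at most 7 in any of them. These correlations describe the same libraries, which share depth and group structure, and many of the counts behind them are below 20.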

How the data were processed

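Per the labels' protocols, small RNAs received adapters that carry unique molecular identifiers, went through 12 to 20 PCR cycles with no size selection, and were read over 75 nt. The deposited values are raw counts per mature miRNA name, without normalization, for 16 libraries with totals of 1744 to 20051. GRCm38 is the genome build in the submitters' processing notes. The sources used here name no aligner, counting tool or miRNA annotation, nor whether identifiers were collapsed. Libraries were grouped by their tissue and treatment labels, which also place the mural mTORi libraries, whose titles hold the word diapaused.

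Counts were tested in R 4.3.3 with edgeR 4.0.16 (quasi-likelihood test, TMM factors, filterByExpr at min.count 10 and min.total.count 15, a mean for each of 6 groups, two-sided). This left 102 miRNAs with all libraries and 106 without polar mTORi replicate 3. Calls needed an adjusted p under 0.05 (Benjamini-Hochberg, over the tested miRNAs of each contrast). There were 12 contrasts, and 2 averaged ones were added after seeing the data. The scripts were tested on simulated data. Nothing labels the libraries of a group as separate embryos, so p-values measure the spread between these libraries, which may be technical. Replicates of a group differed by more than sampling noise in all 14 pairs (chi-square per degree of freedom 2.00 to 21.7).

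The members and lists were chosen with earlier results of these data known. Besides the members, the text names other arms of their hairpins, list members, the 5 miRNAs most like each member by Spearman correlation of log2 CPM (prior count 2), and the 5 with the largest ratio in polar mTORi replicate 3 among those with 10 counts or more in 1 polar mTORi library. Alternatives were DESeq2 1.42.0, limma 3.58.1 voom with quality weights, other scalings and filters, a replicate block, fits of the groups compared alone, and leaving out each library.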

Additional observations from a re-analysis of the deposited data

How the results depend on the processing

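In the fit of all 16 libraries, DESeq2 size factors in edgeR (RLE), library size alone and library size without the 2 members changed no call of either member. DESeq2 gave no p for miR-205-5p, whose largest Cook's distance (6.74) was in polar mTORi replicate 3, and a minimum count of 50 left no test of it. Testing every miRNA with a count gave 2.79 for miR-205-5p polar minus mural under mTORi, 1.003 for miR-203-3p polar minus mural averaged, and 3.62 and 3.81 for the difference of the mTORi effect between parts, all called, and -0.0048 for miR-203-3p in polar minus mural WT. With limma voom the values no longer called were 1.99 and 2.76 (mTORi against WT, polar), -2.30 and -1.39 (diapaused against mTORi, polar) and 0.88 (miR-203-3p, polar minus mural, mTORi). With the compared groups alone, 4.97, -5.08, -3.69 and 3.62 were no longer called (miR-203-3p mTORi against WT, both members diapaused against mTORi in polar, miR-203-3p polar minus mural under mTORi), -1.001 and -2.10 became called (mural diapaused against mTORi), and miR-203-3p in polar minus mural WT was -0.0703. The cause of these shifts was not tested.

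Same-numbered libraries correlated from -0.0114 to 0.364 over 8 pairs, 7 of them over 0.1, and 6 libraries correlated best with their own number. The correlations are of deviations from group means. With 2 WT libraries per part, both WT pairs must then give the same value (0.307), so these counts overstate the evidence. Pairing by number is possible but not established. The labels do not say whether same-numbered fragments share embryos, and diapaused replicate 2 stood at -0.0114. The main fit therefore treated all libraries as unpaired, with the block as an alternative. The 3 mTORi pairs were all over 0.1. The replicate block gave 3.40 and -2.82 for miR-205-5p in polar mTORi against WT and diapaused against mTORi, 2.46 for miR-203-3p in polar minus mural mTORi, none of them called, and -0.0891 for miR-203-3p in mural diapaused against WT. A replicate block within treatment gave 1.67 (not called) for miR-203-3p in polar minus mural mTORi and -0.000969 in polar minus mural WT.

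Leaving out 1 library at a time gave 1.52 to 5.17 and 1.54 to 10.3 for miR-203-3p and miR-205-5p in polar mTORi against WT. The 10.3 was without polar WT replicate 2, where the remaining WT library has no count, so it depends on the prior count and is no bound. For miR-205-5p, diapaused against mTORi in polar fragments ran from -4.06 to -0.78. Polar minus mural under mTORi ran from 0.20 to 4.03 and from -0.18 to 3.21, averaged from -0.17 to 1.12 and from -1.12 to 1.17, and in WT from -0.21 to 0.13 for miR-203-3p. Besides polar mTORi replicate 3, leaving out polar WT replicate 1 or 2 ended both mTORi calls against WT, any polar diapaused replicate that of miR-205-5p against diapause, and any mural mTORi replicate that of miR-203-3p between parts. Averaged values for miR-205-5p without polar mTORi replicate 3 were 1.11 and -1.39.

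Without polar mTORi replicate 3, leaving out a further library gave, for miR-203-3p, 0.0902 to 1.999 (polar mTORi against WT, called without replicate 1), -2.29 to -0.23 (polar diapaused against mTORi), 0.63 to 1.53 and -1.49 to -0.51 (averages), and -1.66 to -0.96 for the average of miR-205-5p (diapaused against mTORi, called without mural diapaused replicate 2). Library size alone (-1.43) and every miRNA with a count (-1.35) ended the miR-203-3p call between polar diapaused and mTORi, and the latter also that of mTORi against WT averaged (1.03). miR-205-5p had 0 to 16 counts in 13 of the 16 libraries, which limits its precision.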
